A study of Dorcoceras hygrometricum with 9 samples.

Results

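Aquaporins are channel proteins of plant membranes, and 4 aquaporin genes are described here through the drying of leaves of the resurrection plant Boea hygrometrica (Dorcoceras hygrometricum in the labels). They are the 4 GeneIDs Bhs3276_001V1.1, Bhs95_066V1.1, Bhs316_023V1.1 and Bhs1906_008V1.1, each with an aquaporin as its best database match, out of 24182 genes with a read. A search of the deposited annotation for aquaporin words found 20 family genes in all. The names are matches to proteins of other plants, and water transport by these proteins was not measured.

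RNA sequencing was done on leaf tissue of potted plants in 3 water states with 3 libraries each. Hydrated leaves (titled HD) are the controls, and the others were sampled after drying to 70% or to 10% RWC, the leaf's water as a percent of what it holds at full hydration (relative water content). The labels give no genotype, age, drying time or number of plants behind a library. The design text calls the 3 libraries of a state biological replicates. If some came from the same plants, the p-values measure a spread that may be technical.

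Aquaporins form tetramers in which each subunit has its own pore for water, and some also pass small solutes such as glycerol, boric or silicic acid. Plasma membrane intrinsic proteins (PIPs) carry water across the cell's outer membrane, and tonoplast intrinsic proteins (TIPs) carry it between the cytosol and the vacuole. Nodulin-26-like (NIP) and small basic (SIP) intrinsic proteins are the other subfamilies found here. PIPs are known to set much of the water permeability of leaf cells, and they are closed or removed from the membrane when water is short.

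Depth per library was 6654601 to 7423965 reads on the 14585 tested genes, which is at least 99.8% of a library's reads. Levels are CPM, reads scaled to a common library size, which are relative to the other transcripts of the same library, and CPM per kilobase of coding length (CPM per kb) wherever genes are compared with each other. Log2 fold changes are given ± SE with adjusted p from edgeR's quasi-likelihood test over all of these genes. Replicate 1 of each state stood apart from replicates 2 and 3, with a chi-square per gene of 4.84 to 8.47 against either of them and of 1.27 to 1.38 between replicates 2 and 3. Among the 10 pairs of a gene and a state with more than 3 reads, replicate 1 had the lowest level of the 3 libraries in 8 and the highest in 1. Each state holds 1 such library, so values from replicate 1 and from replicates 2 and 3 alone stand beside the results.

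Of the genes, 3 belong to the PIPs by their database match: Bhs3276_001V1.1 on the minus strand of scaffold 3276 from 5908 to 8081, Bhs95_066V1.1 on the minus strand of scaffold 95 from 425045 to 426337, and Bhs316_023V1.1 on the plus strand of scaffold 316 from 133060 to 134043. Their coding lengths are 846, 846 and 852 bases. The best match of Bhs316_023V1.1 is named only as aquaporin-like, and its place among the PIPs comes from its KEGG match. Bhs1906_008V1.1, on the plus strand of scaffold 1906 from 69408 to 70294, has a coding length of 777 bases. It is placed among the TIPs from its KEGG match to the Arabidopsis gamma-TIP, while its best match is named only as aquaporin-like. These positions are on the authors' assembly, of a version not given in the sources used. None of the 4 gene models overlaps that of another gene with a read, and models without reads were not examined. Sequences of these genes were not used here.

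All 4 transcripts were lower in drying leaves than in hydrated ones, but by very different amounts. Bhs3276_001V1.1 kept 78.8% ± 7.45 (SD, n = 3) of its hydrated level at 70% RWC and 22.6% ± 3.02 at 10% RWC. Bhs95_066V1.1 kept 10.5% ± 0.827 and then 0.1% ± 0.131, and Bhs316_023V1.1 kept 8.11% ± 0.336 and then 2.93% ± 0.456. Bhs1906_008V1.1 had no read in any of the 6 libraries of drying leaves. In a bulk sample, fewer cells of a type and less of the RNA per cell cannot be told apart.

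**Figure D1:**
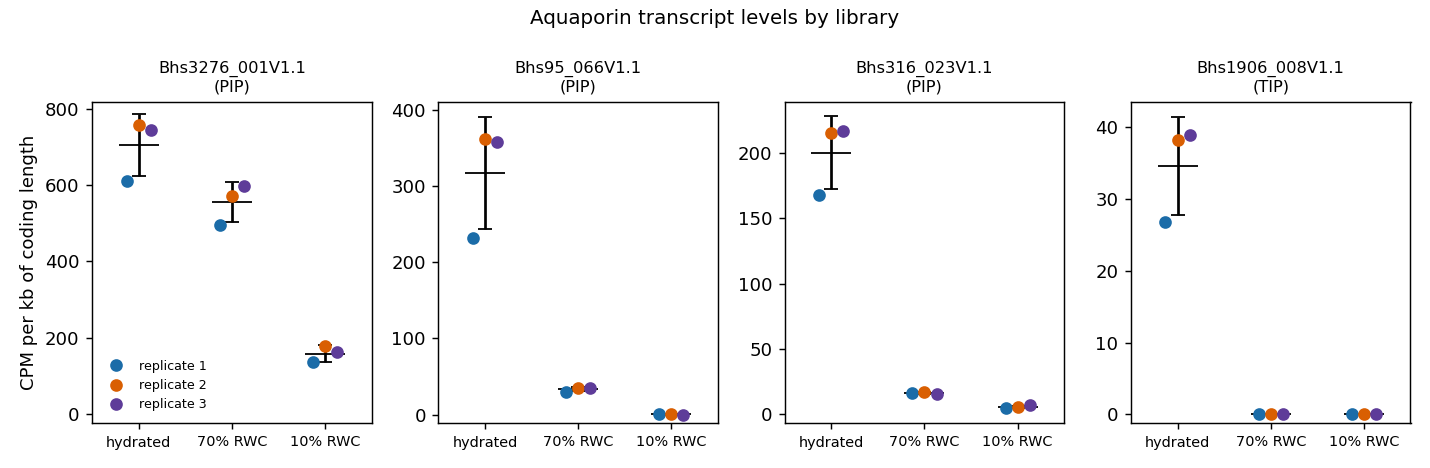
Level of each of the 4 aquaporin genes (vertical axis, CPM per kb of coding length, a separate scale for each gene) in every library of the 3 water states. Points are libraries coloured by replicate number, and the horizontal line and bars are the mean and SD of 3 libraries; Bhs3276_001V1.1 steps down from 703.9 to 554.5 and 158.8, while on this linear scale the other genes lose most of their level between hydrated leaves and 70% RWC.

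Bhs3276_001V1.1 was the most abundant of the 4 in every library. Its hydrated levels were 610.3, 756.7 and 744.5 CPM per kb in replicates 1 to 3, from 4043 to 4511 reads. At 70% RWC they were 495.6, 571.9 and 596.1, and at 10% RWC 136, 178 and 162.4. Each state lay wholly below the wetter one, although the hydrated replicate 1 and the 70% RWC replicate 3 were close. The log2 fold change at 70% RWC was -0.34 ± 0.10 (adjusted p = 0.00996), or 1.27 times lower, with a 95% interval of -0.55 to -0.14. With replicates 2 and 3 of each state summed and counted as 1 sample it was -0.33 and no longer called (adjusted p = 0.0656, in a range of 7.28e-14 to 0.0656 over the alternatives). From hydrated leaves to 10% RWC the change was -2.15 ± 0.11 (adjusted p = 3.26e-10), or 4.43 times lower, and from 70% to 10% RWC -1.80 ± 0.11 (adjusted p = 3.41e-09), or 3.49 times lower. Reads covered 98.94 to 99.88% of the gene model in all 9 libraries.

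Bhs95_066V1.1, whose best match is a PIP2-type protein of castor bean, was the second most abundant in hydrated leaves and at 70% RWC. Its hydrated levels were 231.7, 361.2 and 358.1 CPM per kb, with replicate 1 the lowest and replicates 2 and 3 nearly alike. At 70% RWC they were 30.25, 34.77 and 34.82, all far below the lowest hydrated library. The log2 fold change was -3.25 ± 0.21 (adjusted p = 6.95e-07), or 9.52 times lower. At 10% RWC the 3 libraries held 5, 1 and 0 reads, against 1535, 2153 and 2060 in hydrated leaves. Reads there covered 23.4%, 5.79% and 0% of the gene model, while in hydrated leaves and at 70% RWC they covered 97.16 to 99.41%. The transcript was thus at the limit of detection in the desiccated leaves, where 3 reads over the group correspond to 0.136 CPM. The fitted log2 fold change was -9.85 ± 0.40 against hydrated leaves (adjusted p = 1.47e-08) and -6.60 ± 0.54 against 70% RWC (adjusted p = 3.99e-06). These sizes rest on 6 reads, 5 of them in replicate 1, and without that library they were -11.59 and -8.35.

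Bhs316_023V1.1, a PIP matched to the Arabidopsis gene AT4G35100, had hydrated levels of 168.2, 215.5 and 217 CPM per kb. At 70% RWC they were 16, 17.01 and 15.73, a narrow range far below every hydrated library. The log2 fold change was -3.62 ± 0.11 (adjusted p = 1e-14), or 12.3 times lower. At 10% RWC the levels were 5.001, 5.761 and 6.817, from 32, 35 and 43 reads, again below every library of the state before. The log2 fold change was -1.47 ± 0.17 against 70% RWC (adjusted p = 5.6e-07), or 2.77 times lower, and -5.09 ± 0.13 against hydrated leaves (adjusted p = 4.21e-16), or 34 times lower. Unlike Bhs95_066V1.1, the gene was still covered over 74.3 to 75.47% of its length in each of the 10% RWC libraries.

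Bhs1906_008V1.1, the TIP, was the least abundant in hydrated leaves, with 26.79, 38.17 and 38.99 CPM per kb from 163, 209 and 206 reads. Those reads covered 94.85 to 98.97% of the gene model. Every drying library was at 0 reads, which allows up to 0.144 CPM over the 70% RWC group and 0.136 CPM over the 10% RWC group at a floor of 3 reads, for counting error only. The transcript was therefore at least 185-fold lower at 70% RWC and at least 196-fold lower at 10% RWC. The fitted changes were called in both comparisons (adjusted p = 1.63e-09 and 7.64e-10). The gene passed the filter on low counts through its hydrated libraries alone, so these calls add little to the bounds. Between 70% and 10% RWC no fold can be given.

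In hydrated leaves the order of levels per kb was Bhs3276_001V1.1 (703.9 ± 81.21), Bhs95_066V1.1 (317 ± 73.85), Bhs316_023V1.1 (200.2 ± 27.76) and Bhs1906_008V1.1 (34.65 ± 6.818; SD, n = 3 each). No gene's hydrated range overlapped that of its neighbour in the order. At 70% RWC the means were 554.5 ± 52.47, 33.28 ± 2.622, 16.25 ± 0.6722 and 0, in the same order and without overlap. At 10% RWC Bhs316_023V1.1 (5.86 ± 0.9121) stood above Bhs95_066V1.1 (0.3176 ± 0.4149) in all 3 libraries, so these genes changed places.

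At 70% RWC 4 of the 4 genes were called lower, where 35.9% of all tested genes were, and their groups did not overlap, as was so for 37% of tested genes in that direction. A fall of at least 10-fold was found for 2 of the 4, against 4.22% of tested genes. At 10% RWC against hydrated leaves 4 of 4 were called lower, against 41.5% of tested genes, and 3 of 4 by at least 10-fold, against 11.4%. The groups did not overlap for any of the 4, as for 42% of tested genes. From 70% to 10% RWC 3 of 4 were called lower, against 39.6%, and 1 of 4 by at least 10-fold, against 5.27%. The same 3 did not overlap between these states, where 40.8% of tested genes did not. The median log2 fold change of all tested genes was -0.01, 0.01 and -0.05 in the 3 comparisons. All 4 genes passed the filter on low counts. Bhs1906_008V1.1 did so through its hydrated libraries alone, so its call adds little to these counts. The comparisons against hydrated leaves share those 3 libraries.

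Within replicate 1, with 1 library per state and no test, the log2 ratios at 70% RWC were -0.30 for Bhs3276_001V1.1, -2.94 for Bhs95_066V1.1 and -3.39 for Bhs316_023V1.1. With replicates 2 and 3 alone the corresponding fold changes were -0.35 ± 0.04 (adjusted p = 7.28e-14), -3.36 ± 0.07 (adjusted p = 7.06e-80) and -3.71 ± 0.09 (adjusted p = 2.59e-73). At 10% RWC against hydrated leaves replicate 1 gave -2.17, -8.20 and -5.07, and replicates 2 and 3 gave -2.14 ± 0.05, -11.77 ± 0.17 and -5.09 ± 0.10. From 70% to 10% RWC the values were -1.87, -5.26 and -1.68 in replicate 1 and -1.79 ± 0.05, -8.42 ± 0.35 and -1.38 ± 0.18 in replicates 2 and 3. Replicates 2 and 3 differ by little more than counting error, with a chi-square per gene of 1.27 to 1.38. The SEs and p-values from them alone may therefore measure technical spread and not the spread between plants. The direction was the same in both sets of libraries for each gene. The size differed most for Bhs95_066V1.1 at 10% RWC, where reads are few, with log2 values of -8.20 against -11.77 and -5.26 against -8.42.

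**Figure D2:**
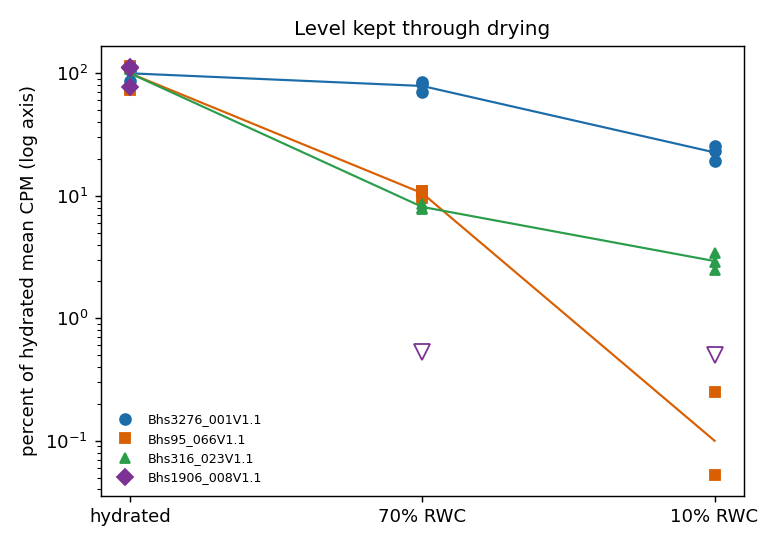
Level of each gene as a percent of its hydrated mean CPM (log axis) in the 3 water states, with a point for each library and a line through the means. Open triangles are the floor of 3 reads over a group for Bhs1906_008V1.1, which had 0 reads in drying leaves, and the 10% RWC replicate of Bhs95_066V1.1 with 0 reads is not drawn; Bhs3276_001V1.1 keeps 78.8% at 70% RWC, and Bhs95_066V1.1 and Bhs316_023V1.1 keep 10.5% and 8.11%.

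The steps of drying were unequal, and in opposite ways for different PIPs. For Bhs316_023V1.1 the fall from hydrated to 70% RWC was the larger, and the change over the second step minus that over the first was 2.15 ± 0.26 on the log2 scale (edgeR adjusted p = 1.29e-06). For Bhs3276_001V1.1 the second step was the larger, with a difference of -1.46 ± 0.18 (adjusted p = 7.88e-06). Bhs95_066V1.1 also fell further over the second step, with a difference of -3.35 ± 0.87 (adjusted p = 0.00827), or -5.10 without the 10% RWC replicate 1. This contrast was chosen after the levels had been seen, and it was called in either direction for 67.1% of tested genes.

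Ratios within a library show the same divergence without any scaling between libraries. Per kb, Bhs3276_001V1.1 stood at 2.63, 2.09 and 2.08 times Bhs95_066V1.1 in the hydrated replicates and at 16.3, 16.4 and 17.1 times at 70% RWC. Against Bhs316_023V1.1 it stood at 3.63, 3.51 and 3.43 times, then 30.8, 33.5 and 37.7 times, and at 10% RWC 26.8, 30.5 and 23.6 times. The excess over Bhs316_023V1.1 thus arose over the first step and was smaller in each 10% RWC library than in any 70% RWC library. Bhs95_066V1.1 stood at 1.38, 1.68 and 1.65 times Bhs316_023V1.1 in hydrated leaves and at 1.89, 2.04 and 2.21 times at 70% RWC, a smaller shift, again without overlap. For each of the 9 comparisons of a ratio between states the exact two-sided permutation p was 0.1, the smallest that 3 against 3 libraries can give, and 0.1 after Benjamini-Hochberg adjustment over the 9.

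**Figure D3:**
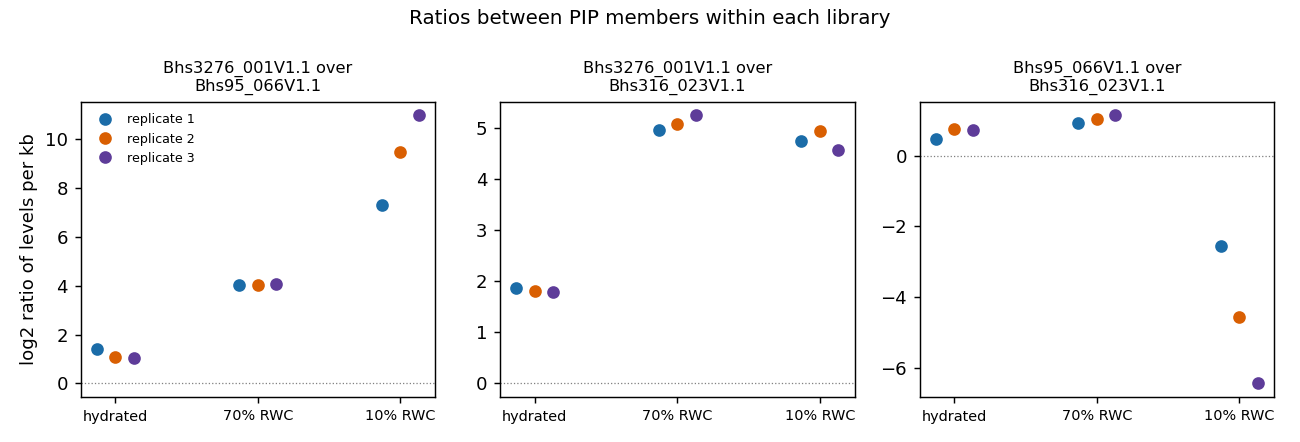
Log2 ratio of levels per kb between each pair of the 3 PIP genes (vertical axis, log2 units, 0.5 reads added to each count) within every library, by water state and coloured by replicate number. The ratio of Bhs3276_001V1.1 to Bhs316_023V1.1 is set between hydrated leaves and 70% RWC, and that of Bhs95_066V1.1 to Bhs316_023V1.1 turns below 0 at 10% RWC, where Bhs95_066V1.1 has 5, 1 and 0 reads.

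Summed over the 4 genes, levels were 876.5, 1159 and 1148 CPM in hydrated leaves, 458.5, 527.8 and 547.2 at 70% RWC and 120, 155.7 and 143.2 at 10% RWC. The states did not overlap, and the sum was 2.08 times lower at 70% RWC and 7.6 times lower at 10% RWC than in hydrated leaves (exact permutation p = 0.1 each, the smallest possible). Bhs3276_001V1.1 made up 56.3% ± 2.24 of the 4 genes' summed CPM per kb in hydrated leaves, 91.8% ± 0.367 at 70% RWC and 96.2% ± 0.482 at 10% RWC (SD, n = 3). The share of Bhs95_066V1.1 went from 25% ± 2.31 to 5.51% ± 0.113 and 0.215% ± 0.298.

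Each of the 4 genes has at least 1 family gene with the same KEGG match. Bhs120_040V1.1 shares the gamma-TIP match of Bhs1906_008V1.1, and its levels went another way. It had 2268, 3705 and 3773 CPM per kb in hydrated leaves, 5354, 7195 and 7726 at 70% RWC and 460.4, 764.4 and 697.5 at 10% RWC. The 70% RWC libraries were all above the hydrated ones and the 10% RWC libraries all below. It rose by 1.06 ± 0.28 at 70% RWC (adjusted p = 0.0122) and was at -2.34 ± 0.29 at 10% RWC against hydrated leaves (adjusted p = 0.000183). Bhs120_040V1.1 was the most abundant of the family, with 45.6% ± 3.99, 81.9% ± 1.42 and 57.5% ± 3.13 of the family's CPM per kb in the 3 states. The 4 genes together held 17.9% ± 0.744, 7.4% ± 0.631 and 15.1% ± 1.31.

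Bhs7229_002V1.1 and Bhs1040_006V1.1 share both the KEGG match and the best match of Bhs316_023V1.1, and reads that fit such copies equally well are not in the authors' counts of unique reads, which makes their levels uncertain. Bhs7229_002V1.1 had 2046 reads in hydrated leaves, 67 at 70% RWC and 2 at 10% RWC. Its log2 fold change at 70% RWC was -4.87 ± 0.25 (adjusted p = 4.78e-09), and the ratio of reads at 10% RWC was 0.000961 with a 95% counting interval of 0.000116 to 0.00348. Bhs189_038V1.1, with the KEGG match of Bhs3276_001V1.1, fell by 2.16 ± 0.30 at 70% RWC (adjusted p = 1.1e-05) from 113 to 24 reads and was at least 38.3-fold lower at 10% RWC. It passed the filter on low counts through its hydrated libraries, where it is high, and did not pass it among the drying libraries alone. Bhs8682_001V1.1 shares the match of Bhs95_066V1.1 and, like Bhs1040_006V1.1, had too few reads to be tested.

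Of the 20 family genes 10 were PIPs, 5 TIPs, 4 NIPs and 1 a SIP, and 16 passed the filter. All 8 tested PIPs were called lower in each of the 3 comparisons, the 3 described above among them, where 35.9%, 41.5% and 39.6% of all tested genes were. Bhs189_038V1.1 passed the filter through its hydrated libraries alone, so its calls add little to these counts. The most abundant PIPs of hydrated leaves, Bhs700_089V1.1 and Bhs313_009V1.1, fell by 1.94 ± 0.08 (adjusted p = 4.01e-13) and 0.89 ± 0.19 (adjusted p = 0.00315) at 70% RWC. At 10% RWC they were at -5.31 ± 0.10 and -2.07 ± 0.20 against hydrated leaves (adjusted p = 4.8e-18 and 1.43e-05). Bhs2171_016V1.1 fell by 2.88 ± 0.09 at 70% RWC (adjusted p = 6.25e-15) and had 4 reads in all at 10% RWC against 2355 in hydrated leaves. It has the same best match as Bhs700_089V1.1, a PIP of the resurrection plant Craterostigma plantagineum. Reads that fit both of these genes equally well would be missing from their counts too. The PIPs summed to 3597 ± 454.3, 1420 ± 144.7 and 397.9 ± 60.02 CPM per kb in the 3 states, and Bhs3276_001V1.1 had the smallest fall of the 8 at 70% RWC. Reads covered only 63.91 to 74.28% of the gene model of Bhs313_009V1.1, whose coding length is 1707 bases. Its level per kb, and with it this sum, may therefore be too low.

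Outside the PIPs directions were mixed. Of all tested genes, 34.6% were called higher at 70% RWC and 42.4% at 10% RWC against hydrated leaves, and 37.1% between the drying states. Among the 4 tested TIPs, 2 rose and 2 fell at 70% RWC. Bhs1940_007V1.1, a TIP matched to AT1G73190, had 0 reads in hydrated leaves, 6, 10 and 9 at 70% RWC and 26, 50 and 30 at 10% RWC. It was thus at least 8.68-fold and at least 34.7-fold higher (adjusted p = 0.000267 and 1.64e-07 for the fitted changes). It passed the filter on low counts through its drying libraries, where it is high, and did not pass it among the hydrated and 70% RWC libraries alone. Bhs157_014V1.1 fell by 2.05 ± 0.40 at 70% RWC (adjusted p = 0.000189) and had 1 read at 10% RWC. Like Bhs1906_008V1.1, the other TIP that fell at 70% RWC, it passed the filter through its hydrated libraries alone. The NIP Bhs8403_002V1.1 fell by 2.27 ± 0.41 at 70% RWC (adjusted p = 8.76e-05) and was higher than in hydrated leaves at 10% RWC, by 1.18 ± 0.25 (adjusted p = 0.000252), on 62, 12 and 143 reads. Bhs20_079V1.1, a NIP whose best match is a silicon transporter, went from 305 reads to 0 and 1. It was at least 97.6-fold lower at 70% RWC (adjusted p = 8.58e-11 for the fitted change) and passed the filter through its hydrated libraries alone. The NIP Bhs4625_004V1.1 moved little, by -0.35 ± 0.12 (adjusted p = 0.0134) at 70% RWC and 0.28 ± 0.11 (adjusted p = 0.0249) at 10% RWC. Those calls were lost in 3 and 9 of 19 alternatives (adjusted p of up to 0.0632 and 0.247). The SIP Bhs5652_001V1.1 fell by 1.56 ± 0.09 and 2.20 ± 0.09 (adjusted p = 2.82e-11 and 2.36e-13).

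**Figure D4:**
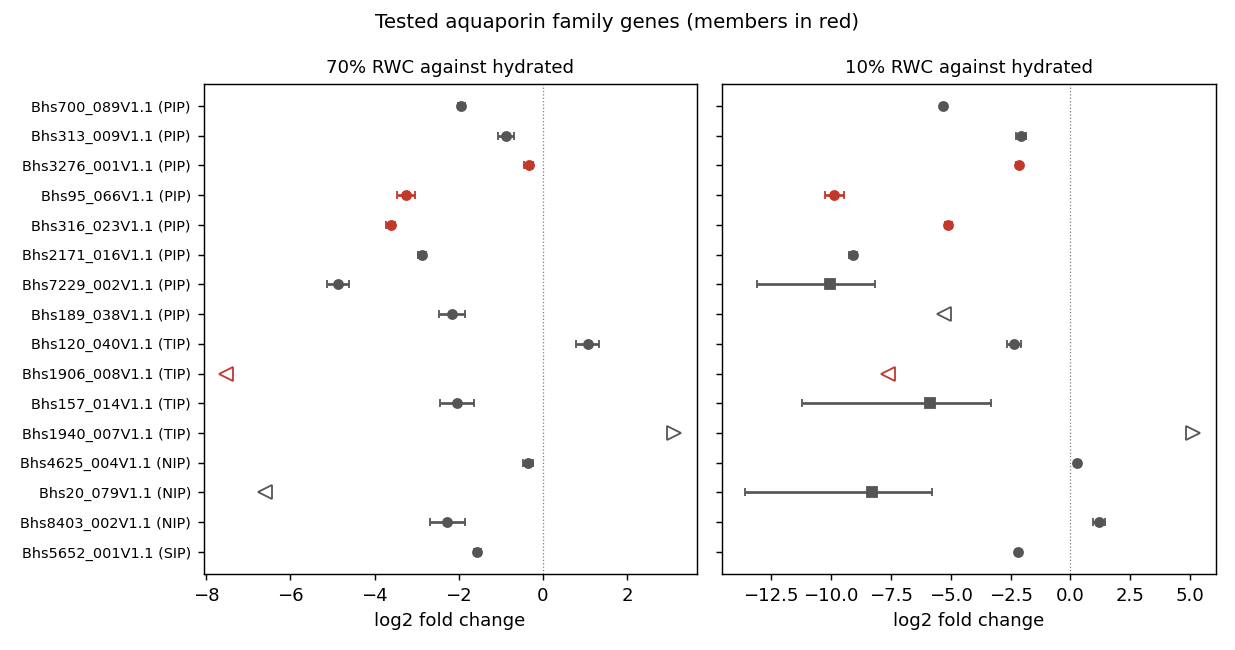
Log2 fold change of the 16 tested aquaporin family genes at 70% RWC and at 10% RWC against hydrated leaves (horizontal axes, separate scales), with the 4 genes described here in red. Circles are fitted values ± SE, triangles are bounds for genes with 0 reads in a group, and squares are read ratios with 95% counting intervals for groups of 1 to 3 reads; the 8 PIPs lie left of 0 in both panels.

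Proton pumps and kinases that act with aquaporins in other plants gave different pictures. The 2 tested plasma membrane H+-ATPases, which energize the membrane in which PIPs sit, were called lower in every comparison. Bhs85_046V1.1 went from 523 ± 11.2 to 29.7 ± 2.25 and 15.4 ± 1.38 CPM, and Bhs6_059V1.1 from 48.8 ± 6.02 to 3.65 ± 1.09 and 0.868 ± 0.368. Of 18 vacuolar proton pump genes, which energize the tonoplast, 12 were higher and 2 lower at 70% RWC and 9 higher and 5 lower at 10% RWC against hydrated leaves. From 70% to 10% RWC the direction was mostly the opposite, with 2 higher and 10 lower. Bhs3030_011V1.1 went from 386 ± 5.57 to 812 ± 20.8 and 592 ± 8.02 CPM. The medians over the 3 comparisons were -3.93, -5.44 and -1.50 for the plasma membrane pumps and 0.37, 0.20 and -0.24 for the vacuolar ones, beside -0.01, 0.01 and -0.05 over all genes. Of all tested genes, 34.6% were called higher and 35.9% lower at 70% RWC, 42.4% and 41.5% at 10% RWC against hydrated leaves, and 37.1% and 39.6% from 70% to 10% RWC.

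Among kinases of the families that phosphorylate PIPs in other plants, 9 of 18 tested calcium-dependent protein kinases were higher and 4 lower at 70% RWC, and 9 were higher and 7 lower at 10% RWC. The more abundant Bhs172_011V1.1 had 255 ± 10.2, 255 ± 9.41 and 575 ± 23.4 CPM in the 3 states, with no change at 70% RWC. Bhs257_045V1.1 went from 55.5 ± 6.98 to 123 ± 8.87 and 283 ± 19.6 CPM. Of 3 SnRK2 kinases, 1 was higher and 1 lower at 70% RWC, and 2 were higher and 1 lower at 10% RWC. The SAPK8-like kinase Bhs543_008V1.1 had 138 ± 0.784, 140 ± 6.17 and 383 ± 26.7 CPM. The SRK2B-like kinase Bhs1916_008V1.1 was highest at 70% RWC, with 109 ± 12.3, 249 ± 10.4 and 157 ± 11.6 CPM. Among 6 genes of 14-3-3 proteins, which bind phosphorylated proteins, 2 were higher and 3 lower at 70% RWC, and 1 was higher and 4 lower at 10% RWC. The shares of all tested genes given for the pumps are the background of these counts too, and several of the counts lie near them.

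Markers of leaf cell types also moved with the water states. Of all tested genes, 35.9% were called lower and 34.6% higher at 70% RWC. The shares were 41.5% and 42.4% at 10% RWC against hydrated leaves, and 39.6% and 37.1% from 70% to 10% RWC. Summed over 13 genes of green tissue (Rubisco small subunit, Rubisco activase and light-harvesting proteins), levels ranged over 6.71e+04 to 8.81e+04 CPM in hydrated leaves, 9.14e+03 to 1.16e+04 at 70% RWC and 2.54e+03 to 3.14e+03 at 10% RWC, with 13 of 13 lower in both comparisons against hydrated leaves. All 3 guard cell markers were lower in both, at 34.8 to 40.2, 14.4 to 15.9 and 6.66 to 8.51 CPM. Epidermal and cuticle markers were lower for 8 of 11 and higher for 1 in both, at 745 to 852, 132 to 142 and 94.5 to 116 CPM. From 70% to 10% RWC 5 of them were higher and 4 lower. Xylem markers were lower for 3 of 4 in both, at 153 to 164, 53.9 to 60 and 28.6 to 34.6 CPM. In this list the xylem cysteine proteinase gene Bhs98_025V1.1 had means of 108, 30.1 and 1.13 CPM. The cellulose synthase gene Bhs11028_001V1.1 went the other way at 10% RWC, with 8.43, 8.65 and 26.3 CPM. Its log2 fold change there was 1.64 ± 0.14 against hydrated leaves (adjusted p = 8.58e-09). The 3 tested phloem markers were higher, at 66.9 to 70.5, 1.34e+03 to 1.46e+03 and 1.68e+03 to 1.85e+03 CPM, most of it the sucrose transporter Bhs865_013V1.1. That direction held in both comparisons against hydrated leaves, while 2 phloem markers were higher and 1 lower from 70% to 10% RWC. Over that step 1 guard cell marker was higher and 2 were lower, and 1 xylem marker was higher and 3 were lower. Of the green tissue genes 12 were lower there and 0 higher. No list had its defining markers at 0, and the part of these shifts in the aquaporin levels was not tested.

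The transcripts most like each of the 4 genes in pattern are given as a description. Over the 9 libraries, and among 4539 described genes with a mean of at least 20 CPM, Pearson r of log2 CPM with Bhs316_023V1.1 was highest for Rubisco activase (Bhs7545_001V1.1, r = 0.9991), a phototropin-1-like blue light receptor (Bhs1835_019V1.1, r = 0.9984) and an amine oxidase (Bhs1029_007V1.1, r = 0.9983). For Bhs95_066V1.1 the closest were a glycosyltransferase (Bhs8040_003V1.1, r = 0.9988), a tyrosine/dopa decarboxylase (Bhs8_023V1.1, r = 0.9986) and a 4-coumarate coenzyme A ligase (Bhs1755_023V1.1, r = 0.9980). For Bhs3276_001V1.1 they were a pair of BEL1-like homeodomain proteins (Bhs3815_004V1.1, r = 0.9984, and Bhs12405_001V1.1, r = 0.9976) and a malonyltransferase (Bhs200_083V1.1, r = 0.9968). For Bhs1906_008V1.1 they were a proline-rich cell wall protein (Bhs6_089V1.1, r = 0.9999), a translocon-associated protein (Bhs741_026V1.1, r = 0.9989) and the photosystem protein PsbP (Bhs1317_004V1.1, r = 0.9988). Bhs1906_008V1.1 is at 0 reads in 6 of the 9 libraries, and Bhs6_089V1.1 has means of 0 CPM in both drying states, so the prior count sets their likeness there. Between the 4 genes r ran from 0.6191 for Bhs1906_008V1.1 with Bhs3276_001V1.1 to 0.9599 for Bhs1906_008V1.1 with Bhs316_023V1.1. These values describe 3 states seen in the same libraries, and 27 to 92 genes exceeded 0.99 for each of the 4.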

How the data were processed

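RNA of 9 leaf libraries (3 water states, 3 each) was sequenced. The deposited per-library files hold, per the file headers, whole-number counts of uniquely aligned reads for each gene, its length, and the percent of its length covered; counts sum to the header total in 9 of 9 files, and genes left out of a file were set to 0. The aligner, assembly version, counting tool and strandedness are not given in the sources used here, so antisense reads cannot be told apart. Lengths are coding lengths (100% are multiples of 3). The authors' deposited table of comparisons holds, per its header, mean normalized reads (a signal), the fold as a ratio and on the log2 scale, and p-values, raw and adjusted.

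Counts were tested with edgeR 4.0.16 under R 4.3.3 (filterByExpr, TMM factors, robust quasi-likelihood fit of all 9 libraries, no block, Benjamini-Hochberg adjusted p under 0.05 over all 14585 tested genes). SEs were taken from the F statistic (absolute log2 fold change over the root of F). Groups with 0 reads give bounds against 3 reads over the group, and groups of 1 to 3 reads a ratio with an exact 95% binomial interval; both cover counting error only. CPM correlations used a prior count of 2. Alternatives included DESeq2 1.42.0, other scalings and filters, a replicate block and left-out libraries. The fit was checked on simulated counts with few genes changed, as many up as down, and with independent libraries. That check cannot speak to the scaling or the error in these data, where most genes were called and replicate 1 stood apart. The 4 genes are always named; other family genes are named if tested, with up to 2 genes per context or marker list and the 3 most alike per gene. Family genes were found by words in the annotation (22 hits, of which 2 were left out for another description). The 4 genes, the lists and most tests were chosen with earlier results of these data known.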

Additional observations from a re-analysis of the deposited data

How the results depend on the processing

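Of 209 alternative settings over 11 fold changes of the 4 genes, 208 kept direction and call, 1 ended a call (Bhs3276_001V1.1 at 70% RWC with replicates 2 and 3 summed, adjusted p = 0.0656; fewer samples enter that fit) and 0 reversed. The difference between the drying steps kept direction and call in 48 of 48. The number of the 4 genes called was 3 to 4 at 70% RWC over the alternatives. Leaving out each library in turn gave 9843 to 10495, 12038 to 12493 and 10841 to 11482 genes called in the 3 comparisons. Without each replicate number in turn the summed level was -1.10 to -1.01 (70% RWC) and -2.95 to -2.88 (10% RWC) on the log2 scale against hydrated leaves, and -1.93 to -1.84 between the drying states. With total counts the median of all genes at 70% RWC moved from -0.01 to -0.11, and Bhs3276_001V1.1 was then at -0.44.

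With a replicate block 10928, 12621 and 11728 genes were called, beside 10284, 12235 and 11194, and 4, 4 and 3 of the 4 genes as before. Deviations of same-numbered libraries correlated at 0.238 to 0.293 for replicate 1, 0.0694 to 0.129 for replicate 2 and 0.0758 to 0.102 for replicate 3. As not all were over 0.1, the numbers were not taken as pairs. Any deviation shared by the replicate 1 libraries therefore stays in the error of the main fit. Depth limits Bhs95_066V1.1 at 10% RWC (6 reads) and Bhs1906_008V1.1 in drying leaves (0 reads).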

Other observations

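The authors' deposited table gives Bhs3276_001V1.1 log2 fold changes of -0.36 and -2.30 at 70% and 10% RWC against hydrated leaves, and Bhs316_023V1.1 values of -3.64 and -5.25 in the same authors' deposited table. In the authors' deposited table the 10% RWC mean of Bhs95_066V1.1 stands at 0.001, with a log2 fold change of -20.97, although the deposited counts hold 6 reads of it there. The authors' deposited table also has 0.001 for Bhs1906_008V1.1 in both drying states, with log2 values of -17.54 and -17.65, which depend on that floor. For Bhs4625_004V1.1 the authors' deposited table gives adjusted p of 0.0686 and 0.490.

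Genes next to the aquaporins on their scaffolds did not all move with them. Bhs3276_001V1.1 was the only gene with a read on its scaffold and so had no neighbour to compare. Bhs316_022V1.1, a gene with no named function 2406 bases from Bhs316_023V1.1, had 3.76 ± 0.851 CPM in hydrated leaves, 15.6 ± 0.214 at 70% RWC and 1.01 ± 0.508 at 10% RWC (SD, n = 3), called higher at 70% RWC and lower at 10% RWC, against either wetter state. Bhs95_067V1.1, 11388 bases from Bhs95_066V1.1, had 2 ± 0.517, 25.5 ± 3.81 and 29 ± 6.65 CPM, called higher in both drying states against hydrated leaves and not called between them. Its other neighbour Bhs95_065V1.1, a kinase-like gene, fell from 9.62 ± 1.43 to 1.6 ± 0.692 and 0.0444 ± 0.0769 CPM, called lower in all 3 comparisons. The RING and CHY zinc finger gene Bhs1906_009V1.1, 4418 bases from Bhs1906_008V1.1, fell from 7.48 ± 0.651 to 2.02 ± 0.451 and 0.45 ± 0.302 CPM, called lower in all 3. Bhs316_024V1.1, a splicing factor gene, had 49.5 ± 11.6, 61.1 ± 5.58 and 75.9 ± 10.5 CPM and was called higher only at 10% RWC against hydrated leaves. Calls are from edgeR's quasi-likelihood test.

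Summed over the 20 family genes, levels were 7045 ± 1317 CPM per kb in hydrated leaves, 8239 ± 1390 at 70% RWC and 1106 ± 225.3 at 10% RWC (SD, n = 3). Without Bhs120_040V1.1 they were 3796 ± 471.5, 1481 ± 144.8 and 465.5 ± 65.99 CPM per kb. The hydrated and 70% RWC ranges overlapped for the whole family and did not overlap without Bhs120_040V1.1.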
